A study of Homo sapiens with 24 samples.

Results

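The libraries described here are the 16 of the 24 in the series that come from TF-1 and UCSD-AML1, and the quantity of interest is the difference between these lines in their response to cyclocreatine. The groups are TF-1 with 3 mM cyclocreatine for 24 h, TF-1 with vehicle, UCSD-AML1 with 3 mM cyclocreatine for 24 h and UCSD-AML1 with vehicle, with 4 libraries each. The labels give acute myeloid leukemia as the disease of every group, and the series describes its lines as driven by EVI1, the product of MECOM. TF-1 came from an erythroleukemia and needs a cytokine to grow. In UCSD-AML1 the MECOM locus itself is rearranged. Each line comes from 1 leukemia, so the many ways in which the lines differ cannot be told apart as sources of a difference in response.

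Cyclocreatine is a creatine analog that enters cells by the creatine transporter and is phosphorylated by creatine kinases. Its phosphorylated form gives its phosphate back to ADP much more slowly than phosphocreatine does, so a cell that fills with it has a poor energy buffer. The series compares this analog with vehicle in lines that express EVI1, and the lines differ widely in the genes that take up and use creatine.

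The response difference is the log2 fold change of a gene under cyclocreatine in TF-1 minus its log2 fold change in UCSD-AML1. A positive value means that the response was higher (a larger rise or a smaller fall) in TF-1, and a negative value that it was lower there. Levels are in CPM, counts scaled to a common library size by TMM, given for each library or as mean ± SD with n = 4. Response differences are given with their SE, and adjusted p-values are from edgeR's quasi-likelihood test with Benjamini-Hochberg adjustment over all 14189 genes tested. A gene is called where that p is under 0.05. Whether a group's 4 libraries stem from separate cultures is not given in the labels, so every p-value here rests on a spread that may be technical.

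Library totals ran from 14297101 to 21200662 counts. TF-1 cyclocreatine replicate 1 stood apart from its group. Its counts differed from those of the other 3 treated TF-1 libraries with a chi-square per degree of freedom of 15.82 to 19.29, against 1.39 to 4.04 in the other 21 replicate pairs. Cytosolic ribosomal protein genes took 10.25% of its counts, compared with 8.47% to 8.53% in replicates 2 to 4 and 6.33% to 6.61% in vehicle-treated TF-1. That share was 7.14% to 7.35% in treated UCSD-AML1 and 6.01% to 6.24% in its vehicle libraries. As to cell type, both lines expressed the progenitor genes CD34, KIT, PTPRC and GATA2. Vehicle-treated TF-1 averaged 216 CPM of the alpha globin gene HBA1 and 43.9 CPM of the beta globin gene HBB, while UCSD-AML1 had 0 counts of both in all of its libraries. VWF, made by megakaryocytes and endothelium, averaged 0.0253 CPM in treated and 0.0451 CPM in vehicle-treated TF-1, and 162 and 204 CPM in the same groups of UCSD-AML1. ELANE, S100A8, MS4A1 and KRT19, which mark granulocytes, B cells and epithelium, were at 0 counts throughout. Other markers of granulocytes and monocytes, B cells and epithelium were expressed. LYZ averaged 111 CPM, ITGAM 66.2 CPM and KRT18 170 CPM in vehicle-treated TF-1. CSF1R averaged 308 CPM, CD79A 35.5 CPM and KRT18 89.6 CPM in vehicle-treated UCSD-AML1.

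Genes whose response differed between the lines included transcription factors, cytokine signalling genes, chaperones of the endoplasmic reticulum and cytosolic ribosomal protein genes. In TF-1 the factor KLF6 and the leucine zipper gene TSC22D3 fell (-0.18 ± 0.075 and -1.04 ± 0.10 on the log2 scale) and the factor KLF2 did not pass the test (0.68 ± 0.34), while in UCSD-AML1 all 3 rose strongly (KLF6 2.01 ± 0.067, TSC22D3 2.11 ± 0.065 and KLF2 6.70 ± 0.16). SOX4, a factor of progenitor cells, and ITGA2B, the platelet integrin, rose in TF-1 (1.57 ± 0.055 and 0.74 ± 0.036), and neither passed the test in UCSD-AML1 (0.07 ± 0.076 and 0.01 ± 0.036). RHAG, a membrane protein of red cells, rose in TF-1 (0.57 ± 0.036) and fell in UCSD-AML1 (-0.76 ± 0.042), while SPTB, a spectrin of the red cell membrane skeleton, fell in TF-1 (-0.77 ± 0.054) and rose in UCSD-AML1 (1.57 ± 0.10).

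In all, 3728 genes were called, 26.3% of those tested. The response was higher in TF-1 for 2018 genes (14.2%) and lower there for 1710 (12.1%). Most differences were small. Their median size was 0.40 on the log2 scale, and 158 higher and 296 lower genes differed by over 2-fold, 38 and 87 of them by over 4-fold. The split between the directions depended on the scaling. With library totals alone in place of TMM, 1109 genes were called higher and 2445 lower, and the median difference over all genes was -0.062, against 0.027 with TMM. The TMM factors were 0.89 to 0.933 in treated TF-1 and 0.976 to 0.983 in its vehicle libraries, and 1.048 to 1.06 in treated UCSD-AML1 and 1.049 to 1.068 in its vehicle libraries. No called gene had the opposite sign under any of the 7 other settings or with any 1 library left out.

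**Figure D1:**
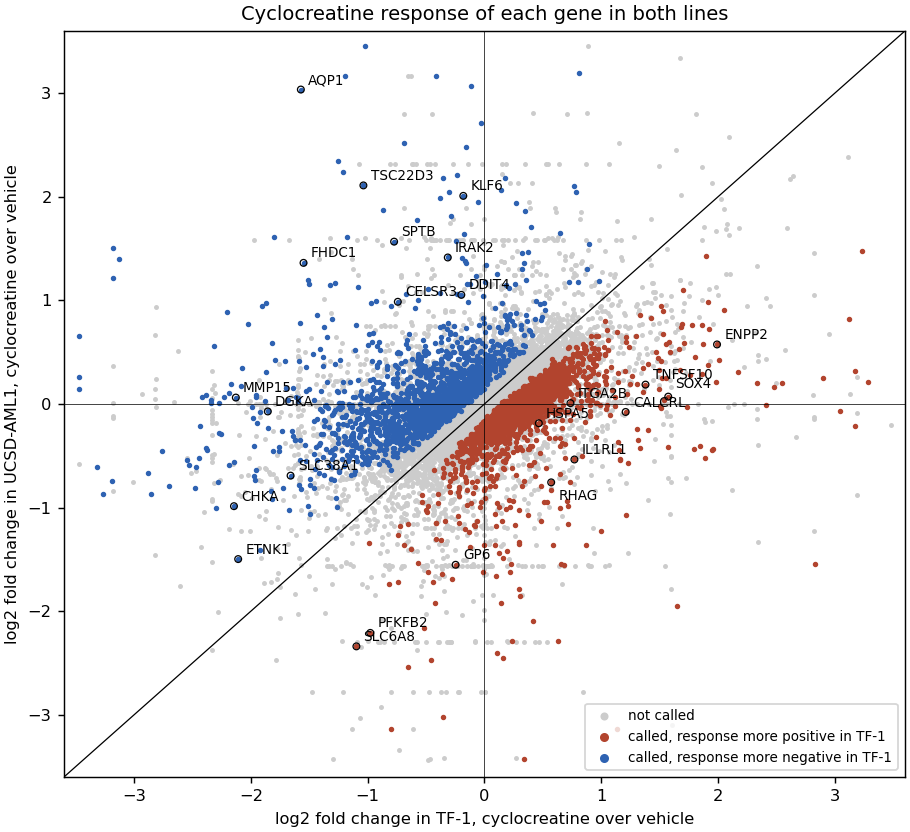
Each point is a gene, with its log2 fold change under cyclocreatine in TF-1 on the horizontal axis and in UCSD-AML1 on the vertical axis, and the diagonal marks equal responses. Called genes lie away from the diagonal, TSC22D3 and KLF6 far above it and SOX4, RHAG and ENPP2 far below it, and 38 genes lie outside the plotted range of 3.6 in either direction.

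The larger response was more often that of TF-1. Cyclocreatine itself was called in 7648 genes in TF-1 (53.9%), 3795 higher (26.7%) and 3853 lower (27.2%), and in 5392 in UCSD-AML1 (38.0%), 2531 higher (17.8%) and 2861 lower (20.2%). With library totals alone the TF-1 split was 2770 higher and 4905 lower. These effects had a median absolute change over all genes of 0.28 in TF-1 and 0.195 in UCSD-AML1. Of the 3728 genes with a response difference, 1670 (44.8%) passed the test for cyclocreatine in TF-1 and not in UCSD-AML1, and 661 (17.7%) passed in UCSD-AML1 and not in TF-1. Another 789 (21.2%) moved the same way in both lines and further in TF-1, and 167 (4.5%) moved the same way and further in UCSD-AML1. Opposite moves, each passing its own test, were found in 363 genes (9.7%), 177 of them up in TF-1 and down in UCSD-AML1 and 186 the reverse. In 12 of the 363 both moves were over 2-fold. The remaining 78 (2.1%) passed in neither line alone.

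Genes were then grouped by their vehicle levels. The vehicle libraries enter both the response difference and the level difference, so the counts below are a description and no correlation or test is given. Of 1575 genes over 2-fold higher in TF-1 vehicle, with at least 1 CPM in both lines, 565 (35.9%) were called, 288 higher and 277 lower. Of 1551 genes over 2-fold higher in UCSD-AML1 vehicle, 576 (37.1%) were called, and here 212 were higher and 364 lower. Of 7911 genes within 2-fold of each other, 2371 (30.0%) were called, 1428 higher and 943 lower. Negative differences outnumbered positive ones among genes higher in UCSD-AML1, also with library totals alone (141 higher and 465 lower). The balance among genes within 2-fold, and among those higher in TF-1, turned with that scaling. Library totals alone gave 718 higher and 1462 lower among genes within 2-fold, and 178 higher and 379 lower among genes higher in TF-1.

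Genes near absence in one line under vehicle were seldom called. Of 1524 genes under 1 CPM in UCSD-AML1 and above it in TF-1, 91 (6.0%) were called, 29 higher and 62 lower. With library totals alone these were 24 and 73. Of 890 genes under 1 CPM in TF-1 and above it in UCSD-AML1, 93 (10.4%) were called, 46 higher and 47 lower. Library totals alone gave 38 and 48 there. The median SE of the difference was 0.82 and 0.64 in these 2 classes, against 0.10 among genes within 2-fold. Smaller differences were thus not detectable in these classes at this depth. Of the called genes near absence in one line, 83 of 91 and 90 of 93 differed by over 2-fold, against 74 of 2371 within 2-fold. Among 1812 genes with at least 100 CPM in both vehicle groups 45.5% were called (825 genes), 33.6% higher (608), with 217 lower.

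**Figure D2:**
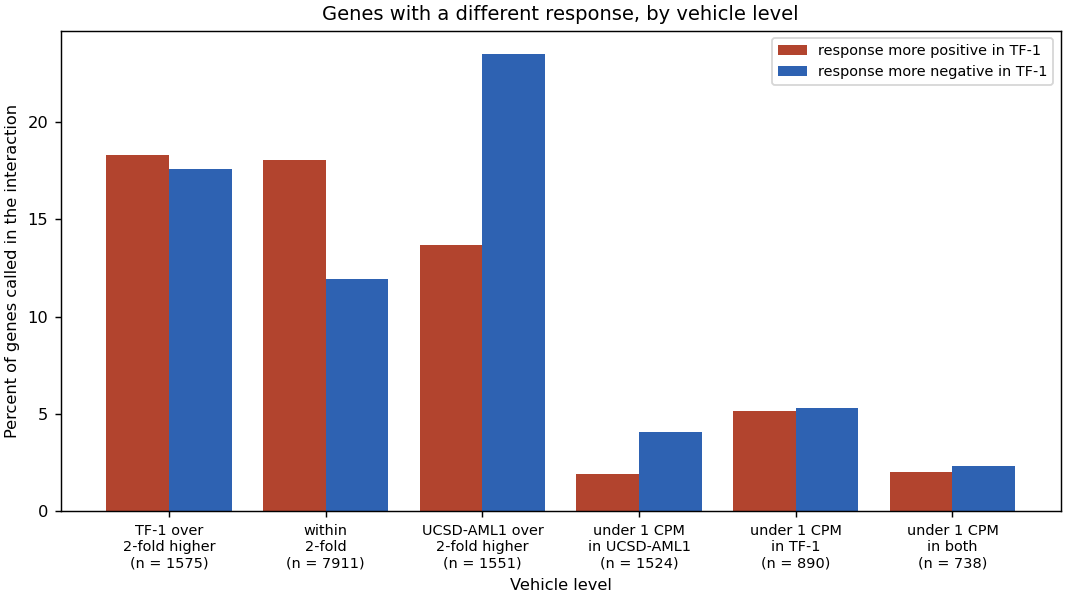
Bars give the percent of genes called in each class of vehicle level, with responses higher in TF-1 and lower in TF-1 side by side and the number of genes under each class. Among genes over 2-fold higher in UCSD-AML1 the bar for lower responses in TF-1 is the taller, and the classes under 1 CPM in one or both lines have short bars.

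The response differences of the creatine genes had no shared direction. Of 8 listed, 5 were tested, and 1 had a higher and 1 a lower response in TF-1. Under cyclocreatine itself 3 fell and 0 rose in TF-1, and 3 fell and 1 rose in UCSD-AML1. The creatine transporter SLC6A8 fell in both lines. Its level was 249.9, 208, 248 and 275 CPM in treated TF-1 libraries, against 527, 515, 508 and 550.2 CPM with vehicle. Treated UCSD-AML1 libraries had 1.78, 1.43, 1.73 and 1.001 CPM, against 8.11, 9.73, 3.66 and 8.62 CPM with vehicle. The groups did not overlap in either line, and the fall was deeper in UCSD-AML1, the line with the far lower vehicle level (difference 1.24 ± 0.35, adjusted p = 0.0161). With limma-voom this call was lost (1.18, adjusted p = 0.0559). GAMT, which makes creatine from guanidinoacetate, moved in opposite directions. It stood at 18.2, 13.6, 13.4 and 13.7 CPM in treated TF-1, against 22.0, 20.9, 20.2 and 18.1 CPM with vehicle, and at 50.7, 56.6, 56.7 and 56.7 CPM in treated UCSD-AML1, against 48.9, 48.0, 46.5 and 45.9 CPM with vehicle. Treated TF-1 replicate 1 overlapped the vehicle libraries and the other 3 treated ones lay below them, while all treated UCSD-AML1 libraries lay above theirs (-0.68 ± 0.11, adjusted p = 5.65e-05).

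Brain-type creatine kinase, CKB, fell in both lines, and its responses could not be told apart with all libraries (-0.07 ± 0.084, adjusted p = 0.598). It had 806, 618, 636 and 655 CPM in treated TF-1, against 982, 1008, 1019 and 983 CPM with vehicle, and 268, 278, 277 and 276 CPM in treated UCSD-AML1, against 408, 399, 353 and 377 CPM with vehicle. The 806 CPM belong to TF-1 cyclocreatine replicate 1, and without that library CKB was called (-0.16, adjusted p = 0.00295). For muscle-type creatine kinase, CKM, the difference missed the threshold (0.45 ± 0.19, adjusted p = 0.0853) and was called on leaving out TF-1 vehicle replicate 3 (0.0396), TF-1 cyclocreatine replicate 4 (0.0489) or UCSD-AML1 cyclocreatine replicate 2 (0.0349). GATM, the first enzyme of creatine synthesis, averaged 14.5 ± 0.949 CPM in treated and 17.3 ± 2.19 CPM in vehicle-treated TF-1, and was near 0 in UCSD-AML1 (1.16 ± 0.94, adjusted p = 0.41). The mitochondrial kinases CKMT1A, CKMT1B and CKMT2 were too low to test. MECOM averaged 11.0 ± 3.82 CPM in treated and 13.2 ± 2.47 CPM in vehicle-treated TF-1. In UCSD-AML1 it averaged 326 ± 2.27 CPM treated and 397 ± 13.7 CPM with vehicle, a far higher level. Its response difference was 0.03 ± 0.20 and did not pass (adjusted p = 0.956), with a sign that changed with the setting.

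KLF factors are zinc finger proteins that bind GC-rich promoters, and KLF2 and KLF6 are known as early-response members. Of 17 listed, 13 were tested, and 5 had a lower response in TF-1 and 0 a higher one. The share called was 38.5%, against 26.3% over all genes (12.1% lower and 14.2% higher). The median difference was -0.39, against 0.027 over all genes. KLF2 was close to absent in both vehicle groups and in treated TF-1, and abundant in treated UCSD-AML1. It had 0.650, 0.782, 0.939 and 0.456 CPM in treated TF-1, against 0.258, 0.543, 0.360 and 0.543 CPM with vehicle. The treated UCSD-AML1 libraries had 47.2, 46.2, 51.6 and 54.4 CPM, against 0.545, 0.240, 0.532 and 0.579 CPM with vehicle. The treated UCSD-AML1 libraries thus lay far above all 12 others, and the TF-1 groups overlapped (difference -6.02 ± 0.50, adjusted p = 7.23e-10). With so few vehicle counts this SE is approximate and can be too small. KLF6 started from like levels in the lines. It had 15.1, 17.3, 16.6 and 17.2 CPM in treated TF-1, against 19.1, 16.4, 19.8 and 19.7 CPM with vehicle, and 72.4, 73.5, 75.2 and 79.3 CPM in treated UCSD-AML1, against 18.6, 18.5, 18.1 and 19.2 CPM with vehicle. All treated UCSD-AML1 libraries were above theirs, and the TF-1 groups overlapped although the small fall there passed the test (difference -2.19 ± 0.10, adjusted p = 2.84e-15).

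KLF10, a TGF-beta-induced factor, and KLF3, a repressor of the family, fell in TF-1 and rose in UCSD-AML1. KLF10 averaged 13.7 ± 1.55 CPM in treated and 19.4 ± 1.89 CPM in vehicle-treated TF-1, and 54.8 ± 3.61 CPM in treated and 43.3 ± 1.01 CPM in vehicle-treated UCSD-AML1 (-0.85 ± 0.11, adjusted p = 1.77e-06). KLF3 differed by -0.52 ± 0.079 (adjusted p = 1.86e-05). The groups did not overlap for either gene in either line.

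The promoters of KLF2 and KLF6, which responded in UCSD-AML1, and of SOX4 and RHAG, which rose in TF-1, are printed to show the sequence at each start. They were chosen after the values were seen, come from RefSeq on GRCh38.p14 (the deposited files follow GRCh37) and run from 250 bases before the gene's start to 50 after it, on the gene's own strand. KLF2 lies at chr19:16324576-16324875 (plus strand), KLF6 at chr10:3785160-3785459 (minus), SOX4 at chr6:21593501-21593800 (plus) and RHAG at chr6:49636790-49637089 (minus). Capitals mark every match, on both strands, to any of 9 motifs. These are GGGCGG (bound by Sp and KLF factors), the E-box CACGTG, the hypoxia core ACGTG that overlaps it, the CRE site TGACGTCA, the AP-1 site TGACTCA, the STAT site TTCNNNGAA, the interferon-stimulated response element, the amino acid response element TGATGCAAT and the ETS site CCGGAAGT.
KLF2: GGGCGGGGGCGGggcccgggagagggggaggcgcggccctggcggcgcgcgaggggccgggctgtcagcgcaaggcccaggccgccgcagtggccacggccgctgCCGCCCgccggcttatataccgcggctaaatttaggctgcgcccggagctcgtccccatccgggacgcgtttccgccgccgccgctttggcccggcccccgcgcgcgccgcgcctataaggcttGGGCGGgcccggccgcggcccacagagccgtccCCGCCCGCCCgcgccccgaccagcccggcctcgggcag
KLF6: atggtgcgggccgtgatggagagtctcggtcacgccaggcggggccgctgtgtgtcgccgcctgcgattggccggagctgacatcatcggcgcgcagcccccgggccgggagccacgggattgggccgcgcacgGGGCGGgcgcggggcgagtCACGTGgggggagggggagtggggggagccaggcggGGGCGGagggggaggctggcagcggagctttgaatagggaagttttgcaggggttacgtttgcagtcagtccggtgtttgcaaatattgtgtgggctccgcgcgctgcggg
SOX4: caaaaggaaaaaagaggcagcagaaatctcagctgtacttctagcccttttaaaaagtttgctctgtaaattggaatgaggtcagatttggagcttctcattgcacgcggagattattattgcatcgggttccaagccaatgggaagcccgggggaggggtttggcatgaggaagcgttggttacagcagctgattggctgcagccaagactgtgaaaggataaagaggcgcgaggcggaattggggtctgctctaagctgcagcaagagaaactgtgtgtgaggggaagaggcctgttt
RHAG: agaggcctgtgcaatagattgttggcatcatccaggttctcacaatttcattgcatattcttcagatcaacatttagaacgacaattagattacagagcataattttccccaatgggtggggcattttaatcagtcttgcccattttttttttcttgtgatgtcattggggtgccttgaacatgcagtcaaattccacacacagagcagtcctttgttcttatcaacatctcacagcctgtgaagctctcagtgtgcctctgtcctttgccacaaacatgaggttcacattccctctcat
The KLF2 window held 6 matches to GGGCGG and the KLF6 window 2, a motif found in 44.95% of the 35116 promoters of the table. KLF6 also held 1 CACGTG, present in 7.26% of promoters, and its 2 matches to ACGTG (21.41%) lie within it, 1 on each strand. The SOX4 and RHAG windows held none of the 9 motifs. The CRE site was in 1.85% of promoters, the AP-1 site in 4.95%, the STAT site in 7.66%, the interferon-stimulated element in 3.57%, the amino acid response element in 0.24% and the ETS site in 4.14%.

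TSC22D3, known as GILZ, is a leucine zipper gene induced by glucocorticoids and FOXO factors. Treated TF-1 libraries had 6.18, 4.69, 5.05 and 5.52 CPM, against 11.0, 10.8, 10.5 and 11.9 CPM with vehicle. Treated UCSD-AML1 libraries had 87.0, 87.6, 94.5 and 92.3 CPM, against 21.7, 21.6, 20.2 and 20.1 CPM with vehicle. All treated libraries were below vehicle in TF-1 and above it in UCSD-AML1, and the difference of -3.15 ± 0.11 had the smallest p named here (adjusted p = 3.55e-17). The list of energy stress, FOXO and MondoA targets to which it belongs had calls in both directions. Of its 25 tested genes 4 had a higher and 10 a lower response in TF-1, and the median difference was -0.05. Its share called was 56.0%, against 26.3% over all genes (14.2% higher and 12.1% lower). The higher calls numbered 1 with library totals alone, beside 10 lower, and 2 to 6 with 1 library left out (2 without UCSD-AML1 vehicle replicate 3 and 6 without TF-1 cyclocreatine replicate 1). ARRDC4, an arrestin that limits glucose uptake, rose in TF-1, to 35.8 ± 3.98 CPM against 16.4 ± 1.61 with vehicle, and averaged 108 ± 4.05 CPM in treated and 110.0 ± 2.94 CPM in vehicle-treated UCSD-AML1, where it did not pass (1.14 ± 0.10, adjusted p = 9.34e-10). Its relative TXNIP rose in both lines and further in UCSD-AML1, with 617, 657, 605 and 606 CPM in treated TF-1, against 345, 365, 352 and 365 CPM with vehicle. TXNIP had 573, 569, 601 and 621 CPM in treated UCSD-AML1, against 275, 261, 249 and 260.4 CPM with vehicle (-0.38 ± 0.056, adjusted p = 9.89e-06). ARRDC2, another arrestin of the family, rose in UCSD-AML1 and did not pass in TF-1 (-0.61 ± 0.081, adjusted p = 2.43e-06).

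**Figure D3:**
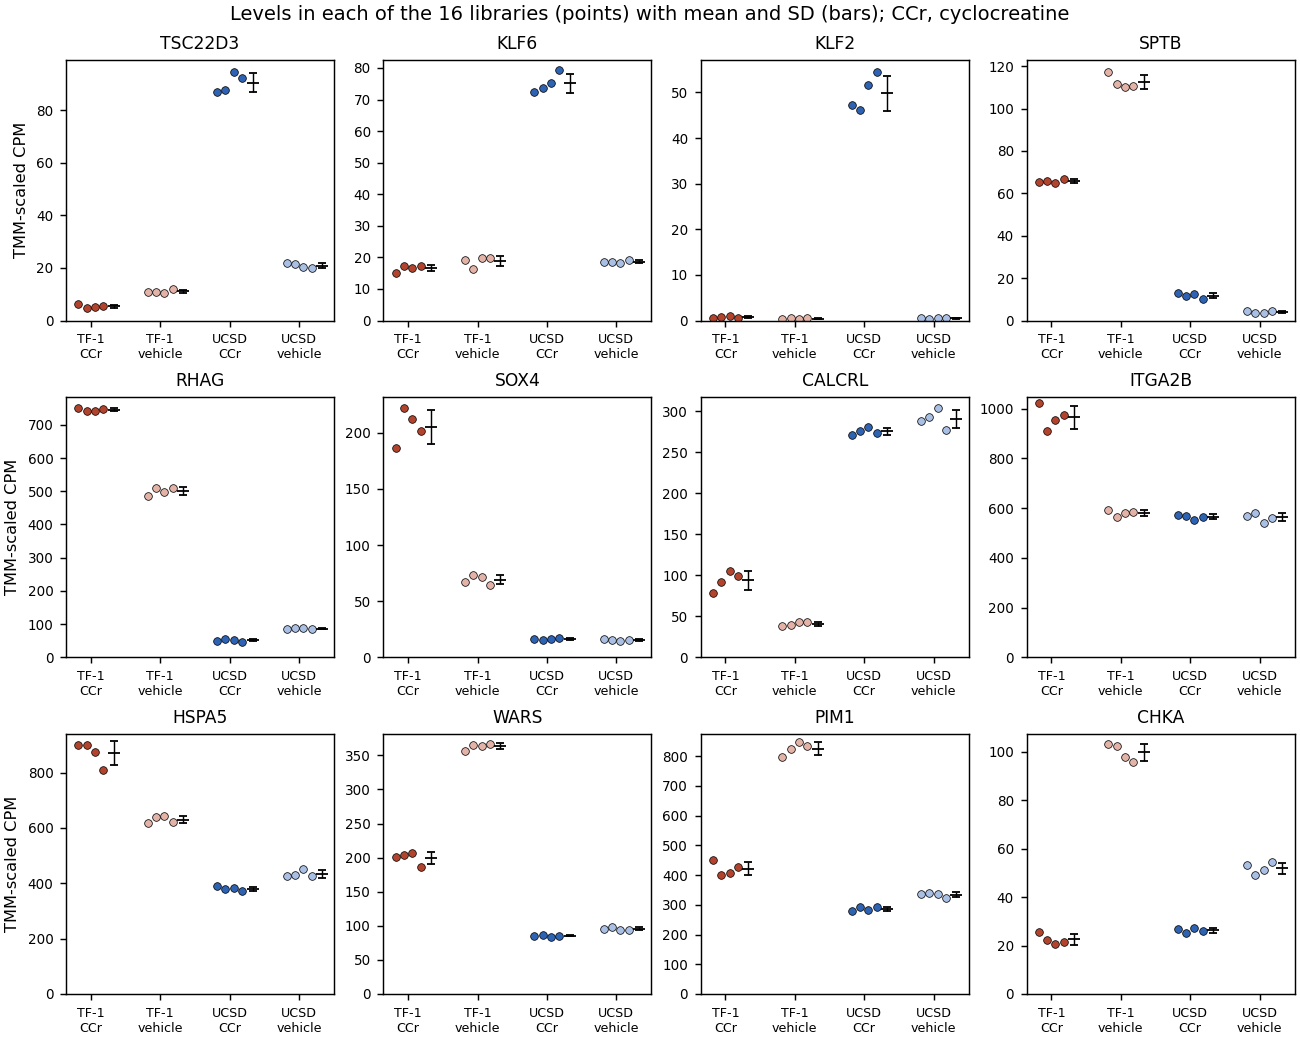
Levels of 12 genes in TMM-scaled CPM, with 1 point per library, and the mean and SD beside each group of 4. TSC22D3, KLF6 and KLF2 are high in treated UCSD-AML1 alone, SOX4, CALCRL, ITGA2B and HSPA5 are higher in treated than in vehicle-treated TF-1, and CHKA is lower under treatment in both lines.

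JAK-STAT signalling carries signals from cytokine receptors, and PIM1, JUNB, ID1 and SOCS3 are among its target genes. Of the 15 tested, 8 had a lower response in TF-1 and 2 a higher one, with a median difference of -0.42. That is 66.7% called, against 26.3% over all genes (12.1% lower and 14.2% higher). In TF-1 11 fell and 1 rose, and in UCSD-AML1 7 fell and 2 rose. Over all genes, 27.2% fell and 26.7% rose in TF-1, and 20.2% fell and 17.8% rose in UCSD-AML1. The kinase PIM1 had 450.5, 402, 407 and 428 CPM in treated TF-1, against 796, 824, 847 and 836 CPM with vehicle, and 279.5, 291, 283 and 294 CPM in treated UCSD-AML1, against 335, 341, 336 and 324 CPM with vehicle. All treated libraries lay below vehicle in both lines and the fall was larger in TF-1, where the vehicle level was also higher (-0.75 ± 0.053, adjusted p = 4.31e-11). JUNB, an AP-1 factor, fell to 40.6 ± 4.96 CPM in treated TF-1, against 74.9 ± 1.35 CPM with vehicle, while 44.9 ± 3.22 CPM in treated and 43.3 ± 0.921 CPM in vehicle-treated UCSD-AML1 overlapped (-0.94 ± 0.094, adjusted p = 2.54e-08). ID1, an inhibitor of helix-loop-helix factors, followed the same pattern (-0.72 ± 0.090, adjusted p = 8.44e-07). SOCS3, the feedback inhibitor of the pathway, fell in TF-1 and rose in UCSD-AML1, with no overlap in either line. It had 30.8, 32.4, 31.5 and 32.3 CPM in treated TF-1, against 36.5, 40.6, 43.6 and 43.2 CPM with vehicle, and 20.7, 23.9, 20.6 and 24.5 CPM in treated UCSD-AML1, against 17.1, 16.7, 18.4 and 18.3 CPM with vehicle (-0.72 ± 0.11, adjusted p = 1.09e-05).

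Genes of amino acid supply and the integrated stress response, which include transfer RNA synthetases, amino acid transporters and targets of the factor ATF4, numbered 41 among those tested. Of these, 21 had a lower and 1 a higher response in TF-1, and the median difference was -0.26. The share called was 53.7%, against 26.3% over all genes (12.1% lower and 14.2% higher). In TF-1 27 fell and 5 rose, and in UCSD-AML1 11 fell and 9 rose. Over all genes, 27.2% fell and 26.7% rose in TF-1, and 20.2% fell and 17.8% rose in UCSD-AML1. WARS, the tryptophan synthetase, had 200.5, 203, 207 and 186 CPM in treated TF-1, against 357, 366, 364 and 367 CPM with vehicle, and 85.2, 86.3, 84.2 and 85.7 CPM in treated UCSD-AML1, against 94.7, 98.6, 94.3 and 94.0 CPM with vehicle. Treated libraries were below vehicle in both lines, by far more in TF-1 (-0.71 ± 0.055, adjusted p = 1.86e-10). MARS, the methionine synthetase, fell in TF-1 and did not pass in UCSD-AML1 (-0.55 ± 0.057, adjusted p = 5.26e-08). The glutamine transporter gene SLC38A1 fell in both lines, to 29.0 ± 3.55 CPM in treated TF-1, against 92.0 ± 4.97 CPM with vehicle, and to 745 ± 15.99 CPM in treated UCSD-AML1, against 1203 ± 34.0 CPM with vehicle (-0.97 ± 0.075, adjusted p = 2.05e-10). DDIT4, an inhibitor of mTORC1, was abundant in TF-1 and low in UCSD-AML1. It had 477, 352, 416 and 405 CPM in treated TF-1, against 453, 471, 495 and 475 CPM with vehicle, and these groups overlapped through treated replicate 1. It rose in UCSD-AML1, where treated libraries had 15.6, 17.2, 16.1 and 15.8 CPM, against 7.68, 7.09, 8.18 and 8.36 CPM with vehicle (-1.25 ± 0.12, adjusted p = 1.44e-08).

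For genes of the endoplasmic reticulum unfolded protein response, which include chaperones and folding enzymes, the calls lay mostly the other way. Of 25 tested, 13 had a higher response in TF-1 and 1 a lower one, with a median difference of 0.24, and 5 moved in opposite directions with both moves passing. The share called was 56.0%, against 26.3% over all genes (14.2% higher and 12.1% lower). In TF-1 10 rose and 5 fell, and in UCSD-AML1 1 rose and 15 fell. Over all genes, 26.7% rose and 27.2% fell in TF-1, and 17.8% rose and 20.2% fell in UCSD-AML1. HSPA5, the chaperone BiP, had 901, 900.3, 874 and 809 CPM in treated TF-1, against 618, 638, 644 and 621 CPM with vehicle. Treated UCSD-AML1 libraries had 389, 380.5, 383 and 371 CPM, against 425, 430.4, 453 and 425 CPM with vehicle. HSPA5 thus rose in TF-1 and fell in UCSD-AML1 without overlap (0.65 ± 0.052, adjusted p = 3.34e-10). HYOU1, another chaperone of that compartment, did the same with smaller changes (0.41 ± 0.053, adjusted p = 1.81e-06). PDIA4, a disulfide isomerase, rose in TF-1, to 149 ± 7.20 CPM against 84.6 ± 3.86 CPM with vehicle, and averaged 78.8 ± 2.86 CPM in treated and 73.2 ± 5.25 CPM in vehicle-treated UCSD-AML1 (0.71 ± 0.075, adjusted p = 5.35e-08). The factor XBP1 fell in both lines and less in TF-1, to 182 ± 6.42 CPM against 199.7 ± 7.11 CPM with vehicle, than in UCSD-AML1, with 429 ± 13.0 CPM treated and 642 ± 9.46 CPM with vehicle (0.45 ± 0.052, adjusted p = 2.54e-07).

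Most cytosolic ribosomal protein genes rose in both lines and more in TF-1. Of 79 listed, 77 were tested and 66 (85.7%) had a higher response in TF-1 and 0 a lower one. All 77 rose in TF-1, by a median of 0.59 on the log2 scale (0.20 to 0.93), and 73 passed in UCSD-AML1, all upward, with a median change over the list of 0.26 (0.09 to 0.46). The median difference was 0.32, against 0.027 over all genes. RPL13A, a protein of the large subunit, had 809.9, 667, 662 and 639 CPM in treated TF-1, against 345, 367, 379 and 367 CPM with vehicle, and 458, 444, 471 and 474 CPM in treated UCSD-AML1, against 378, 373, 354 and 372 CPM with vehicle. The treated and vehicle libraries did not overlap in either line (0.61 ± 0.074, adjusted p = 7.94e-07). RPL14 (0.46 ± 0.062, adjusted p = 2.86e-06), RPL15 (0.46 ± 0.059, 1.54e-06) and RPL7 (0.46 ± 0.068, 8.62e-06), also of the large subunit, had the next smallest p-values. The library with the largest share of these transcripts was TF-1 cyclocreatine replicate 1. Without it the median difference was 0.22, 71 genes were called higher, and the estimate was larger in TF-1 for 76 of the 77, RPS26 being the exception at -0.02. With library totals alone 53 were called higher. These are abundant genes, with a median of 688 CPM in vehicle-treated TF-1 and 621 CPM in vehicle-treated UCSD-AML1, and among all genes over 100 CPM in both the share called higher was 33.6%.

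**Figure D4:**
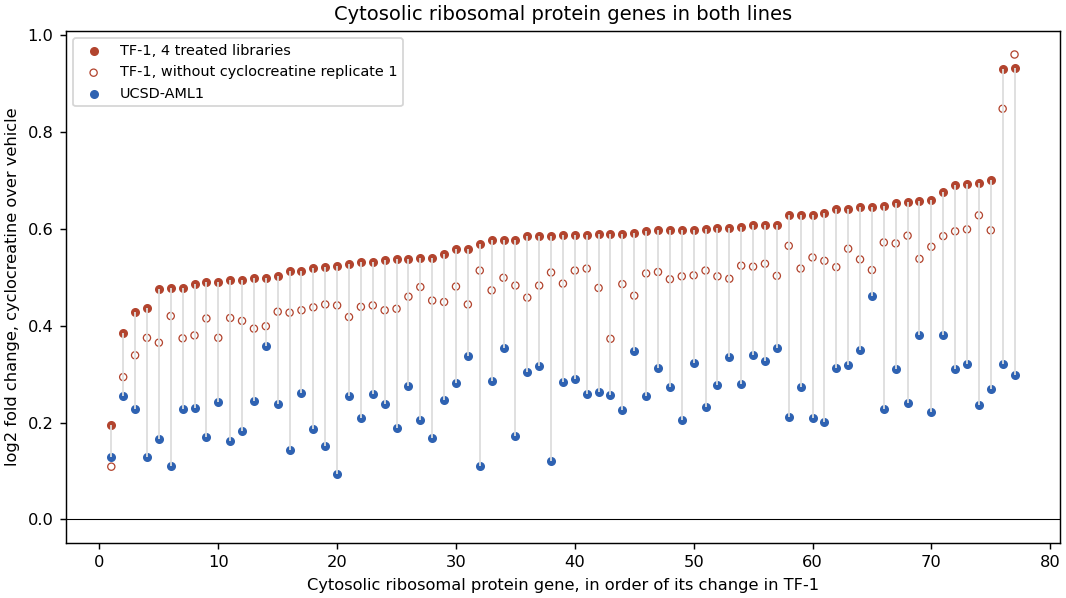
The 77 cytosolic ribosomal protein genes in order of their log2 fold change in TF-1, with the change in UCSD-AML1 and, as open circles, the TF-1 change without cyclocreatine replicate 1. The TF-1 points run from 0.20 to 0.93 and lie above the UCSD-AML1 points, which run from 0.09 to 0.46, and leaving out replicate 1 lowers most TF-1 points.

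Calls among mitochondrial and growth genes lay mostly in the same direction, with smaller differences and counts that depended on the scaling. Among all genes with at least 100 CPM in both vehicle groups 33.6% were called higher. The tricarboxylic acid cycle and the MYC and ribosome biogenesis list lay near that share, and mitochondrial ribosomal proteins under it. Of 76 nuclear-encoded oxidative phosphorylation genes 31 (40.8%) had a higher and 0 a lower response in TF-1, with a median difference of 0.18. With library totals alone 16 of them were called higher. Without TF-1 cyclocreatine replicate 1, 30 were called higher and 2 lower. Examples are UQCRB of complex III (0.36 ± 0.068, adjusted p = 0.000219), NDUFB6 (0.51 ± 0.10, 0.000238) and NDUFB4 (0.41 ± 0.079, 0.000327) of complex I, and ATP5F1 of the ATP synthase (0.29 ± 0.058, 0.000473). NDUFB6 averaged 57.9 ± 6.67 CPM in treated and 35.6 ± 2.08 CPM in vehicle-treated TF-1, and 48.5 ± 0.783 CPM in treated and 42.4 ± 1.45 CPM in vehicle-treated UCSD-AML1, so that it rose in both lines. The tricarboxylic acid cycle had 9 higher and 0 lower of 25, but 1 higher and 2 lower with library totals alone, and mitochondrial ribosomal proteins 20 higher and 2 lower of 76 (12 and 5 with library totals alone).

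MYC targets and ribosome biogenesis factors had 13 higher and 2 lower of 36, and 6 and 4 with library totals alone. NPM1, the nucleolar protein nucleophosmin, had 2669, 2488, 2488 and 2370.0 CPM in treated TF-1, against 1680.0, 1791, 1782 and 1785 CPM with vehicle. Treated UCSD-AML1 had 1262, 1232, 1285 and 1271 CPM, against 1228, 1162, 1228 and 1180.0 CPM with vehicle. NPM1 rose in TF-1 without overlap and did not pass in UCSD-AML1 (0.44 ± 0.051, adjusted p = 3.45e-07). NCL, which encodes nucleolin (0.25 ± 0.046, adjusted p = 0.000149), and GNL3, which encodes nucleostemin (0.29 ± 0.054, 0.000185), rose slightly in TF-1 and fell slightly in UCSD-AML1. WDR43, a ribosomal RNA processing factor, fell in UCSD-AML1 and did not pass in TF-1 (0.27 ± 0.060, adjusted p = 0.00153).

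Genes of G2/M and mitosis had 16 higher and 2 lower of 35, with a median difference of 0.19, and 7 and 2 with library totals alone. Their vehicle medians were 136 CPM in TF-1 and 101 CPM in UCSD-AML1. Among all genes with at least 100 CPM in both vehicle groups 33.6% were called higher. In TF-1 18 rose and 4 fell, and in UCSD-AML1 2 rose and 14 fell. The mitotic kinase CDK1 rose to 169.6 ± 7.61 CPM in treated TF-1, against 138 ± 5.99 CPM with vehicle, and averaged 143 ± 2.78 CPM in treated and 151 ± 4.47 CPM in vehicle-treated UCSD-AML1, where it did not pass (0.37 ± 0.060, adjusted p = 3.22e-05). BUB3 of the spindle checkpoint rose in TF-1 and fell in UCSD-AML1 (0.30 ± 0.049, adjusted p = 3.7e-05), and DLGAP5, a spindle protein, fell in UCSD-AML1 and did not pass in TF-1 (0.35 ± 0.061, 7.95e-05). The phosphatase gene CDC25B was an exception. It fell in TF-1, with 103, 96.8, 93.8 and 99.1 CPM treated, against 145, 139, 136 and 144 CPM with vehicle, and its groups overlapped in UCSD-AML1, at 62.4, 59.0, 62.2 and 62.9 CPM treated, against 62.9, 66.0, 59.4 and 62.1 CPM with vehicle (-0.50 ± 0.066, adjusted p = 2.41e-06).

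Type I interferon response genes were much lower in vehicle-treated TF-1, with a median of 7.31 CPM, than in vehicle-treated UCSD-AML1, with a median of 87.4 CPM. In TF-1 20 of 30 fell and 0 rose, and in UCSD-AML1 18 fell and 3 rose, while the rest did not pass. Over all genes, 27.2% fell and 26.7% rose in TF-1, and 20.2% fell and 17.8% rose in UCSD-AML1. The response of the interferon genes was lower in TF-1 for 13 and higher for 3, with a median difference of -0.45. That is 53.3% called, against 26.3% over all genes (12.1% lower and 14.2% higher). IFIT2, an RNA-binding protein induced by interferon, had 0.520, 1.99, 1.08 and 1.47 CPM in treated TF-1, against 8.26, 7.60, 6.72 and 5.19 CPM with vehicle, and 7.54, 6.69, 5.69 and 7.07 CPM in treated UCSD-AML1, against 9.64, 7.99, 9.91 and 11.3 CPM with vehicle. It fell in both lines, further in TF-1 (-1.92 ± 0.29, adjusted p = 1.32e-05). IFIT5, of the same family, had 0.130, 0, 0.144 and 0.152 CPM in treated TF-1, against 2.32, 0.882, 0.780 and 1.81 CPM with vehicle, close to absence, and fell modestly from the higher level of UCSD-AML1 (-3.26 ± 0.48, adjusted p = 9.92e-06). OAS3, a synthetase that senses double-stranded RNA, averaged 0.951 ± 0.387 CPM in treated and 2.32 ± 0.214 CPM in vehicle-treated TF-1. In UCSD-AML1 OAS3 was abundant, at 1199 ± 18.1 CPM treated and 1191 ± 43.0 CPM with vehicle, and did not pass (difference -1.25 ± 0.19, adjusted p = 1.41e-05). IFI27 showed the same pattern of levels, fell in TF-1 and rose slightly in UCSD-AML1 (-1.79 ± 0.28, adjusted p = 1.94e-05). The TF-1 falls of these genes other than IFIT2 start from under 3 CPM. Beside them, summed lymphoid markers were 3.98 to 5.66 CPM in treated and 3.68 to 5.29 CPM in vehicle-treated TF-1, and 174 to 180 CPM in treated and 179 to 188 CPM in vehicle-treated UCSD-AML1, in UCSD-AML1 almost all of it NCAM1 and CD79A, and their part in the result was not tested.

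The Kennedy pathway builds phosphatidylcholine and phosphatidylethanolamine from choline and ethanolamine. Of 15 tested genes 7 had a lower response in TF-1 and 1 a higher one, with a median difference of -0.15. These calls made up 53.3% of the list, against 26.3% over all genes (12.1% lower and 14.2% higher). Choline kinase CHKA had 25.6, 22.4, 20.6 and 21.5 CPM in treated TF-1, against 103, 102, 97.7 and 95.6 CPM with vehicle, and 26.7, 25.0, 27.3 and 25.8 CPM in treated UCSD-AML1, against 53.1, 49.0, 51.3 and 54.3 CPM with vehicle. It fell in both lines to like levels, from the higher vehicle level in TF-1 (-1.16 ± 0.089, adjusted p = 1.55e-10). Ethanolamine kinase ETNK1 fell to 19.6 ± 1.74 CPM in treated TF-1, against 84.9 ± 4.40 CPM with vehicle, and to 43.8 ± 1.08 CPM in treated UCSD-AML1, against 124 ± 8.68 CPM with vehicle (-0.61 ± 0.089, adjusted p = 7.85e-06). PCYT1A, the enzyme that follows CHKA in this route, fell in TF-1 and did not pass in UCSD-AML1 (-0.36 ± 0.086, adjusted p = 0.00258). PISD, which makes phosphatidylethanolamine in mitochondria, rose in TF-1 and did not pass in UCSD-AML1 (0.37 ± 0.061, adjusted p = 4.38e-05).

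Osmolyte transporters bring solutes such as inositol and taurine into cells. Of 8 genes 4 had a lower response in TF-1 and 0 a higher one, with a median difference of -0.67. SLC5A3, the myo-inositol transporter, had 104, 139.5, 141 and 148 CPM in treated TF-1, against 122, 91.8, 107 and 96.8 CPM with vehicle, and these groups overlapped through treated replicate 1 and vehicle replicate 1. In UCSD-AML1 all treated libraries lay above vehicle, at 132, 124, 121 and 125 CPM, against 54.3, 56.9, 51.5 and 55.6 CPM (-0.85 ± 0.13, adjusted p = 4.18e-05). SLC6A6, the taurine transporter, averaged 102 ± 10.7 CPM in treated and 79.5 ± 6.23 CPM in vehicle-treated TF-1, and 306 ± 7.27 CPM in treated and 169 ± 5.40 CPM in vehicle-treated UCSD-AML1, and rose in both (-0.50 ± 0.082, adjusted p = 4.25e-05). SLC38A2, an amino acid transporter that answers osmotic stress, rose in UCSD-AML1 and did not pass in TF-1 (-0.35 ± 0.068, adjusted p = 0.00028). Aldose reductase, AKR1B1, was near absent in TF-1 and did not pass (adjusted p = 0.26).

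Erythroid and megakaryocyte markers each had response differences in both directions. Of 35 erythroid markers 4 had a higher and 8 a lower response in TF-1, with a median difference of -0.05. The share called was 34.3%, not far above the 26.3% of all genes (14.2% higher and 12.1% lower). The median vehicle level of these markers was 130 CPM in TF-1 and 0.218 CPM in UCSD-AML1. For most of them the response in UCSD-AML1 could therefore not be measured. RHAG, which both lines express, had 749, 740.4, 742 and 748 CPM in treated TF-1, against 486, 510.3, 497 and 511 CPM with vehicle. UCSD-AML1 had 48.6, 53.5, 52.5 and 47.2 CPM treated, against 84.1, 87.0, 86.8 and 83.5 CPM with vehicle. RHAG rose in TF-1, where it was already the higher, and fell in UCSD-AML1, so that the gap between the lines widened (1.33 ± 0.055, adjusted p = 4.48e-16). SPTB had 65.2, 65.7, 64.8 and 67.0 CPM in treated TF-1, against 117, 112, 110.0 and 111 CPM with vehicle, and 12.9, 11.3, 12.5 and 10.3 CPM in treated UCSD-AML1, against 4.25, 3.67, 3.59 and 4.31 CPM with vehicle. It fell in TF-1 and rose in UCSD-AML1, so that the gap narrowed (-2.34 ± 0.11, adjusted p = 4.12e-15). TFRC, the transferrin receptor, fell in both lines, to 2410.0 ± 237 CPM in treated TF-1, against 5336 ± 175 CPM with vehicle, and to 347 ± 9.13 CPM in treated UCSD-AML1, against 558 ± 13.1 CPM with vehicle (-0.46 ± 0.067, adjusted p = 9.92e-06). TRIM58, a ubiquitin ligase of maturing red cells, fell in TF-1 and did not pass in UCSD-AML1 (-0.57 ± 0.085, adjusted p = 1.21e-05).

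Of 22 megakaryocyte markers 7 had a higher and 4 a lower response in TF-1. In TF-1 1 rose and 13 fell, and in UCSD-AML1 3 rose and 15 fell. The gene that rose in TF-1 was ITGA2B, with 1024, 911, 955 and 974 CPM in treated TF-1, against 591, 564, 579.6 and 583 CPM with vehicle. UCSD-AML1 had 574, 569.9, 554 and 565 CPM treated, against 567, 580.2, 542 and 562 CPM with vehicle. The vehicle groups of the lines stood at like levels, and treated TF-1 was above all other libraries (0.73 ± 0.051, adjusted p = 2.93e-11). GP6, the platelet collagen receptor, fell in both lines and further in UCSD-AML1, with 38.4, 40.3, 42.2 and 38.1 CPM in treated TF-1, against 44.5, 47.9, 51.2 and 44.8 CPM with vehicle. Treated UCSD-AML1 had 10.2, 11.6, 10.46 and 10.3 CPM of GP6, against 29.4, 35.2, 28.9 and 31.7 CPM with vehicle (1.31 ± 0.11, adjusted p = 5.43e-10). GP1BA, the receptor for von Willebrand factor, fell to 26.0 ± 2.98 CPM in treated TF-1, against 41.9 ± 0.421 CPM with vehicle, and to 74.2 ± 1.27 CPM in treated UCSD-AML1, against 191 ± 9.71 CPM with vehicle (0.68 ± 0.084, adjusted p = 7.58e-07). PEAR1, a platelet contact receptor, fell in TF-1 and rose in UCSD-AML1 (-0.74 ± 0.079, adjusted p = 6.45e-08). Summed over 11 markers the megakaryocyte level was 1080 to 1190 CPM in treated and 812 to 850 CPM in vehicle-treated TF-1, and 1040 to 1070 CPM in treated and 1410 to 1530 CPM in vehicle-treated UCSD-AML1. ITGA2B alone sets the higher sum of treated TF-1. The other 10 markers summed to 161 to 172 CPM in treated and 247 to 259 CPM in vehicle-treated TF-1, and to 487 to 497 CPM in treated and 863 to 947 CPM in vehicle-treated UCSD-AML1. In such cultures, fewer cells of a type and less RNA per cell cannot be told apart.

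Among genes with at least 5 CPM in both vehicle groups, SOX4 had the largest positive difference. It had 186, 222, 213 and 201 CPM in treated TF-1, against 66.8, 73.1, 71.3 and 64.6 CPM with vehicle, and 16.4, 14.9, 16.3 and 17.1 CPM in treated UCSD-AML1, against 15.8, 15.7, 14.6 and 15.4 CPM with vehicle. SOX4 rose in TF-1, its higher line, and the UCSD-AML1 groups overlapped (1.5 ± 0.094, adjusted p = 3.03e-12). ENPP2, which encodes autotaxin, the enzyme that makes lysophosphatidic acid, had 24.8, 29.5, 28.0 and 26.5 CPM in treated TF-1, against 6.45, 5.77, 7.68 and 7.24 CPM with vehicle, and 438, 429.7, 454 and 449 CPM in treated UCSD-AML1, against 303, 307, 283 and 296 CPM with vehicle. It rose in both lines and by the larger factor in TF-1, the lower line (1.42 ± 0.088, adjusted p = 3.03e-12). CALCRL, the calcitonin receptor-like receptor, had 78.5, 91.5, 106 and 99.6 CPM in treated TF-1, against 37.5, 38.9, 43.2 and 42.4 CPM with vehicle. In UCSD-AML1 it was at 272, 276, 281 and 274 CPM treated, against 288, 293, 304 and 278 CPM with vehicle, and these overlapped (1.29 ± 0.088, adjusted p = 4.36e-11). The death ligand TNFSF10, or TRAIL, had 77.6, 70.5, 78.0 and 75.3 CPM in treated TF-1, against 29.7, 28.3, 29.0 and 28.9 CPM with vehicle, and 59.0, 58.2, 59.4 and 60.1 CPM in treated UCSD-AML1, against 50.9, 52.6, 55.0 and 49.4 CPM with vehicle. It rose in both lines, and far more in TF-1 (1.19 ± 0.074, adjusted p = 3.03e-12).

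IL1RL1, a receptor of the interleukin family, rose in TF-1, to 9.94 ± 0.632 CPM against 5.84 ± 0.458 CPM with vehicle, and fell in UCSD-AML1, to 10.7 ± 0.729 CPM against 15.5 ± 0.284 CPM with vehicle (1.31 ± 0.14, adjusted p = 6.45e-08). The treated groups of the lines overlapped, although their vehicle groups did not. PFKFB2, which sets the level of an activator of glycolysis, started from like levels and fell less in TF-1, to 15.6 ± 1.22 CPM against 30.8 ± 3.10 CPM with vehicle, than in UCSD-AML1, with 6.996 ± 0.553 CPM treated and 32.5 ± 2.05 CPM with vehicle (1.23 ± 0.13, adjusted p = 4.2e-08). DNAJC6, which encodes auxilin, fell in both lines and further in UCSD-AML1 (1.28 ± 0.12, adjusted p = 8.37e-09).

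The genes with the largest negative differences at that level, after TSC22D3, started with FHDC1, a formin. It had 1.89, 2.49, 1.44 and 2.53 CPM in treated TF-1, against 6.39, 6.11, 5.70 and 6.64 CPM with vehicle, and 13.9, 12.4, 13.2 and 15.7 CPM in treated UCSD-AML1, against 4.57, 6.13, 4.59 and 6.11 CPM with vehicle. FHDC1 fell in TF-1 and rose in UCSD-AML1 from vehicle levels that overlapped (-2.91 ± 0.22, adjusted p = 9.39e-11). MMP15, a membrane metalloproteinase, had 3.77, 2.98, 3.68 and 3.19 CPM in treated TF-1, against 14.9, 13.8, 14.7 and 16.1 CPM with vehicle. The level in UCSD-AML1 was 128, 126, 126 and 126 CPM treated, against 118, 124, 121 and 122 CPM with vehicle. MMP15 fell in TF-1, its lower line, and did not pass in UCSD-AML1 (-2.19 ± 0.10, adjusted p = 2.84e-15). DGKA, a diacylglycerol kinase, showed the same pattern, with 2.47, 2.70, 1.52 and 3.49 CPM in treated TF-1, against 8.52, 10.3, 9.78 and 9.41 CPM with vehicle, and 57.8, 58.5, 56.5 and 60.5 CPM in treated UCSD-AML1, against 60.8, 60.1, 61.2 and 63.2 CPM with vehicle (-1.78 ± 0.15, adjusted p = 1.32e-09). SPHK1, sphingosine kinase, also fell in TF-1 and did not pass in UCSD-AML1 (-1.68 ± 0.22, adjusted p = 1.42e-06). CELSR3, a cadherin, fell in TF-1 and rose in UCSD-AML1 (-1.73 ± 0.14, adjusted p = 5.61e-10). IRAK2, a kinase of interleukin receptor signalling, did likewise, at 11.2 ± 0.967 CPM in treated and 13.9 ± 1.42 CPM in vehicle-treated TF-1, and 14.3 ± 1.10 CPM in treated and 5.31 ± 1.01 CPM in vehicle-treated UCSD-AML1 (-1.73 ± 0.17, adjusted p = 9.63e-09). ZNF667-AS1, an antisense RNA, fell in both lines and further in TF-1 (-2.44 ± 0.32, adjusted p = 1.8e-06), and without stated strand use its reads cannot be told apart from those of ZNF667.

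Opposite moves of the largest size, beside those above, were in KDR, NEIL1, SLC35D3, AQP1, DIRAS1 and TSPEAR-AS1. KDR, the receptor VEGFR2, had 92.7, 91.5, 101.1 and 105 CPM in treated TF-1, against 68.1, 63.8, 69.8 and 68.7 CPM with vehicle, and rose. In UCSD-AML1 it was close to absent throughout, at 0, 0.0597, 0 and 0 CPM treated, against 0.436, 0.421, 0.133 and 0.129 CPM with vehicle, so its large difference rests on few counts and is no bound on the fold (4.20 ± 0.80, adjusted p = 0.00027). The water channel AQP1 had 7.93, 11.4, 8.52 and 11.4 CPM in treated TF-1, against 25.6, 32.2, 26.9 and 32.8 CPM with vehicle, and fell. UCSD-AML1 had 0.920, 1.61, 1.11 and 1.07 CPM of AQP1 treated, against 0.109, 0.0601, 0.199 and 0.193 CPM with vehicle, a rise from near absence without overlap (-4.61 ± 0.44, adjusted p = 9.95e-09). NEIL1, a DNA glycosylase of base excision repair, rose in TF-1, to 11.2 ± 1.84 CPM against 6.85 ± 1.10 CPM with vehicle, and fell in UCSD-AML1, to 2.22 ± 0.665 CPM against 4.26 ± 0.861 CPM with vehicle (1.64 ± 0.26, adjusted p = 2.32e-05). SLC35D3, a member of the nucleotide sugar transporter family, rose in TF-1 and fell in UCSD-AML1 (1.65 ± 0.37, adjusted p = 0.00146), where it stayed under 1.2 CPM. DIRAS1, a small GTPase of the Ras family, fell in TF-1, to 6.48 ± 0.605 CPM against 16.2 ± 1.37 CPM with vehicle, and rose in UCSD-AML1, to 1.30 ± 0.404 CPM against 0.582 ± 0.130 CPM with vehicle (-2.47 ± 0.30, adjusted p = 7.58e-07).

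Genes near absence in one line under vehicle gave the largest fitted differences, and these are the least certain. The fitted values depend on a prior count, and their SE can be too small. DDX60, an interferon-induced helicase, had 0 counts in all 4 treated TF-1 libraries, against 38 counts over the vehicle libraries. That is at least 3.15-fold lower with a floor of 3 counts per library, if the vehicle mean is taken as exact. In UCSD-AML1 DDX60 fell to 63.9 ± 1.44 CPM, against 99.5 ± 4.19 CPM with vehicle (adjusted p of the difference = 5.49e-05). NPR1, the receptor for atrial natriuretic peptide, was also at 0 counts in treated TF-1, against 16 counts with vehicle. That is 1.34-fold lower at the same floor, and no firm bound, since the error of the 16 vehicle counts is left out. In UCSD-AML1 NPR1 averaged 7.72 ± 0.550 CPM in treated and 9.85 ± 0.664 CPM in vehicle-treated libraries (adjusted p of the difference = 0.00245). TSPEAR-AS1, an antisense RNA whose strand is uncertain here, was at or near 0 in TF-1 and rose in UCSD-AML1, to 50.5 ± 6.17 CPM against 28.7 ± 3.25 CPM with vehicle (adjusted p = 0.0103). RNF43, a ubiquitin ligase that removes Wnt receptors, averaged 9.91 ± 1.25 CPM in treated and 10.8 ± 0.858 CPM in vehicle-treated TF-1, and was at or near 0 in UCSD-AML1 (adjusted p = 0.0109). OLFML2B, an extracellular olfactomedin protein, rose in TF-1, to 16.9 ± 1.78 CPM against 7.72 ± 0.402 CPM with vehicle, and was at or near 0 in UCSD-AML1 (adjusted p = 0.0334). That call was lost in 6 of the alternatives, without any 1 of the 4 treated UCSD-AML1 libraries (adjusted p = 0.0548 to 0.0574), without UCSD-AML1 vehicle replicate 2 (0.0548) and without vehicle replicate 4 (2.98, adjusted p = 0.238), which holds most of its few counts there. BAI1, an adhesion receptor, was at 0 counts in vehicle-treated TF-1 and passed narrowly (adjusted p = 0.0499). Its call was lost in 16 of the alternatives, among them DESeq2 size factors (adjusted p = 0.0524), library totals alone (0.0637), limma-voom (1.18, adjusted p = 0.26) and the leaving out of any 1 library of 13. Without TF-1 cyclocreatine replicate 2 its difference was 1.60, against 4.01, with an adjusted p of 0.406.

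**Figure D5:**
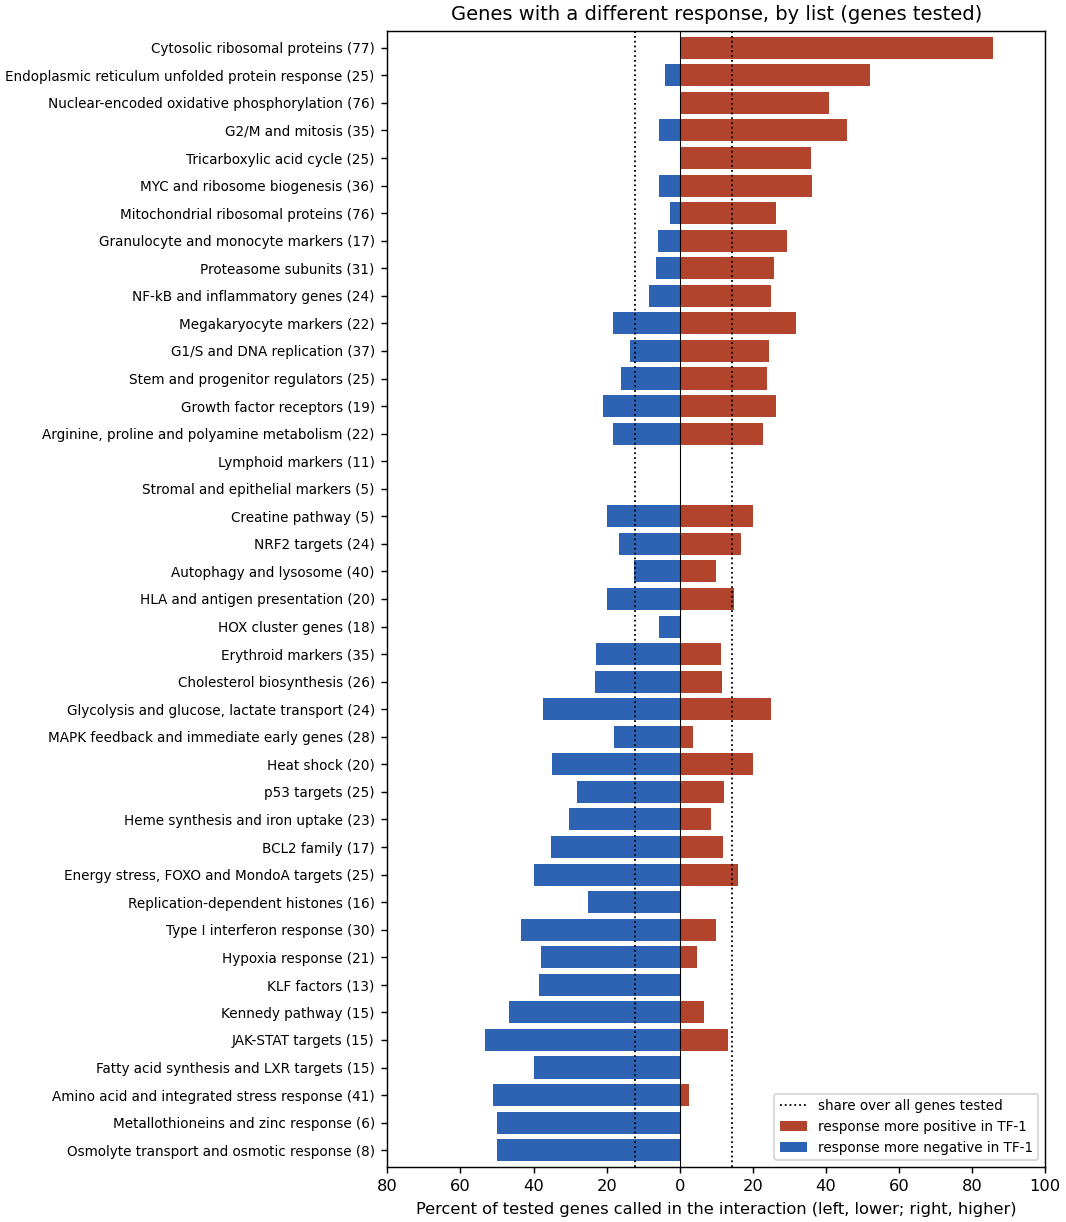
For each gene list, bars to the right give the percent of tested genes with a higher response in TF-1 and bars to the left the percent with a lower one, and dotted lines mark the shares over all genes tested, 14.2% and 12.1%. Cytosolic ribosomal proteins reach 85.7% to the right, and the amino acid and integrated stress response, JAK-STAT and Kennedy pathway lists extend mostly to the left.

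The other gene lists were described by their counts, beside 26.3% of all genes called, 14.2% higher and 12.1% lower. Several lay near or under that share, such as autophagy and lysosome (22.5%), MAPK feedback (21.4%) and NF-kB genes (33.3%). Glycolysis genes were called in both directions, with 6 higher and 9 lower of 24 (62.5%). They are abundant, with vehicle medians of 374 CPM in TF-1 and 247 CPM in UCSD-AML1. Among genes with at least 100 CPM in both vehicle groups 45.5% were called. Hypoxia genes had 1 higher and 8 lower of 21, fatty acid synthesis and LXR targets 0 higher and 6 lower of 15, the BCL2 family 2 and 6 of 17, and heat shock genes 4 and 7 of 20. Heme synthesis and iron uptake had 2 higher and 7 lower of 23 (4 and 12 without TF-1 cyclocreatine replicate 1), p53 targets 3 and 7 of 25, cholesterol synthesis 3 and 6 of 26, and metallothioneins 0 and 3 of 6. Proteasome subunits had 8 higher and 2 lower of 31, granulocyte and monocyte markers 5 and 1 of 17, and NF-kB genes 6 and 2 of 24. Stem and progenitor regulators had 6 higher and 4 lower of 25, growth factor receptors 5 and 4 of 19, G1/S genes 9 and 5 of 37, NRF2 targets 4 and 4 of 24, and arginine, proline and polyamine genes 5 and 4 of 22. HLA genes had 3 higher and 4 lower of 20, autophagy and lysosome genes 4 and 5 of 40, MAPK feedback genes 1 and 5 of 28, histones 0 and 4 of 16, and HOX genes 0 and 1 of 18. With library totals alone several of these balances turned or became one-sided. Proteasome subunits then had 2 higher and 4 lower, G1/S genes 3 and 7, NRF2 targets 1 and 7, arginine, proline and polyamine genes 3 and 5, HLA genes 1 and 7, stem and progenitor regulators 4 and 5, and growth factor receptors 4 and 7. Calls higher in TF-1 fell in number also among glycolysis genes (3, with 10 lower), heat shock genes (2 and 8), autophagy and lysosome genes (2 and 8), cholesterol synthesis (1 and 9), the BCL2 family (0 and 7) and heme synthesis and iron uptake (0 and 12), and NF-kB genes had 6 higher and 5 lower. Of the 11 lymphoid and 5 stromal and epithelial markers tested, 0 were called.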

How the data were processed

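The 24 libraries of the series were deposited as raw counts, 1 file a library, for 25728 RefSeq gene symbols, and the 16 of TF-1 and UCSD-AML1 were used. Some symbols were altered by date conversion before deposit and were not named. Per the submitters' processing notes, the authors used FastQC, TopHat2 and RSEM with GRCh37 (hg19). The sources used here do not give their roles, their versions or the use of strand, so counts of antisense and near-identical genes are uncertain.

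The deposited counts were filtered with filterByExpr (minimum count 10, minimum total 15), which kept 14189 genes and 99.93% to 99.95% of each library's counts, and scaled by TMM. A group-means model with 12 residual degrees of freedom (median biological coefficient of variation 0.0649) was fitted with edgeR 4.0.16 (glmQLFit, robust, and glmQLFTest, two-sided) in R 4.3.3. The contrasts were cyclocreatine over vehicle in each line and the difference of these responses, TF-1 minus UCSD-AML1. Benjamini-Hochberg adjustment ran over all genes tested, with a threshold of 0.05. SE values were derived from the log2 difference and its F statistic. Alternatives were DESeq2 1.42.0 size factors and Wald test, limma 3.58.1 with voom, library totals alone, no filter, all 24 libraries, a replicate block, and leaving out each library. Python 3.11.15, numpy 2.4.6, pandas 2.3.3 and matplotlib 3.10.9 made the counts of calls and the figures.

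Genes were named by rule: the 10 largest differences per direction among called genes with at least 5 CPM in both vehicle groups; the 5 per direction with the largest opposite moves; the 4 per direction with the largest differences among called genes under 1 CPM in 1 line; up to 4 per described list; and the creatine genes with MECOM. Members, lists and rules were chosen with earlier results of these data known, and the 15 described of 41 lists, with the promoters printed, after values were seen. A count of 0 allows up to 3 counts in a library, and this covers counting error of the group at 0 only. The mean of the other group was used as it stood, without its own counting error.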

Additional observations from a re-analysis of the deposited data

Results flagged for a closer look

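The response to cyclocreatine differed between the lines in 3728 genes by the test of the difference itself, and 82 of the named genes are among them. All differences here are log2 values, TF-1 minus UCSD-AML1. Named genes with at least 5 CPM in both lines and a higher response in TF-1 were SOX4 (1.5), ENPP2 (1.42), RHAG (1.33), IL1RL1 (1.31), GP6 (1.31), CALCRL (1.29), DNAJC6 (1.28), SLC6A8 (1.24), PFKFB2 (1.23) and TNFSF10 (1.19). Those with a lower response were TSC22D3 (-3.15), FHDC1 (-2.91), ZNF667-AS1 (-2.44), MMP15 (-2.19), KLF6 (-2.19), IFIT2 (-1.92), DGKA (-1.78), CELSR3 (-1.73), IRAK2 (-1.73) and SPHK1 (-1.68). Opposite moves in the lines gave NEIL1 1.64, SLC35D3 1.65, AQP1 -4.61, DIRAS1 -2.47 and GAMT -0.68. The fitted values of KDR (4.20), OLFML2B (4.28), RNF43 (4.23), BAI1 (4.01), KLF2 (-6.02), DDX60 (-5.64), TSPEAR-AS1 (-5.22) and NPR1 (-4.71) rest on few or 0 counts in at least 1 group and are no bounds.

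Among members of the gene lists, translation and growth genes gave RPL13A 0.61, RPL15 0.46, RPL14 0.46, RPL7 0.46, NPM1 0.44, NCL 0.25, GNL3 0.29 and WDR43 0.27. Mitochondrial genes gave UQCRB 0.36, NDUFB6 0.51, NDUFB4 0.41 and ATP5F1 0.29, and mitotic genes CDC25B -0.50, CDK1 0.37, BUB3 0.30 and DLGAP5 0.35. The endoplasmic reticulum list gave HSPA5 0.65, PDIA4 0.71, XBP1 0.45 and HYOU1 0.41, and amino acid and stress genes WARS -0.71, SLC38A1 -0.97, DDIT4 -1.25 and MARS -0.55. Interferon genes gave IFIT5 -3.26, OAS3 -1.25 and IFI27 -1.79, and cytokine targets PIM1 -0.75, JUNB -0.94, ID1 -0.72 and SOCS3 -0.72. KLF10 (-0.85), KLF3 (-0.52), ARRDC4 (1.14), ARRDC2 (-0.61) and TXNIP (-0.38) were also among them. Lipid and osmolyte genes gave CHKA -1.16, ETNK1 -0.61, PISD 0.37, PCYT1A -0.36, SLC5A3 -0.85, SLC6A6 -0.50 and SLC38A2 -0.35. Lineage genes gave SPTB -2.34, TFRC -0.46, TRIM58 -0.57, ITGA2B 0.73, PEAR1 -0.74 and GP1BA 0.68.

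In 23 of 324 groups of 4 libraries a single library stood apart by Dixon's criterion, which chance alone meets in about 1 in 20 groups. Of these, 7 were in TF-1 cyclocreatine replicate 1. It had 333 CPM of DNAJC6 (420 to 429 in the other 3), 18.2 of GAMT (13.4 to 13.7), 810 of RPL13A (639 to 667), 1180.0 of RPL14 (987 to 1002), 328 of UQCRB (266 to 276), 214 of WDR43 (236 to 239) and 601 of SLC38A2 (723 to 744). Other treated TF-1 libraries standing apart were replicate 2 for SLC35D3, at 13.5 CPM (16.2 to 16.5), and replicate 3 for GP1BA, at 21.5 CPM (27.0 to 27.9). In vehicle-treated TF-1 they were replicate 1 for OLFML2B, at 8.32 CPM (7.46 to 7.56), and NPM1, at 1680.0 CPM (1782 to 1791), replicate 3 for CKM, at 13.7 CPM (10.6 to 11.1), and UQCRB, at 175 CPM (182 to 183), and replicate 4 for SPHK1, at 6.21 CPM (4.75 to 4.98). In treated UCSD-AML1 replicate 1 stood apart for MMP15, at 128 CPM (126 in the others), and GAMT, at 50.7 CPM (56.6 to 56.7). Replicate 2 did for GP6, at 11.6 CPM (10.2 to 10.5), PFKFB2, at 7.82 CPM (6.67 to 6.81), and CDK1, at 139 CPM (144 to 145). Replicate 3 did for MECOM, at 329 CPM (324 to 325), and replicate 4 for BAI1, at 60.3 CPM (56.0 to 56.5). In vehicle-treated UCSD-AML1 it was replicate 2 for CDK1, at 144 CPM (152 to 153), and WARS, at 98.6 CPM (94.0 to 94.6).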

How the results depend on the processing

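The 3728 called genes became 3596 with DESeq2 size factors, 3554 with library totals alone, 3832 with DESeq2's Wald test, 3652 with limma-voom, 3490 of 20663 without a filter, 4242 with all 24 libraries, and 3187 to 4729 with 1 library left out, the highest without TF-1 cyclocreatine replicate 1. Of 2018 genes called higher, 1109 were left with library totals alone (2445 lower, against 1710). With a floor of 0.5 CPM the share called was 3.6% among genes under it in UCSD-AML1 and 9.8% among genes under it in both lines, against 6.0% and 4.3% at 1 CPM. The share in both was 8.0% with limma-voom. The MECOM difference of 0.03 changed sign with library totals alone (-0.054) and limma-voom (-0.002), and ran from -0.18 to 0.166 with 1 library left out. The cause was not tested. Of 82 called named genes 79 kept their call throughout, the exceptions being SLC6A8, OLFML2B and BAI1. Of 1886 list counts under these settings 1739 stayed within 1.5 times. Alternatives for the classes by response, and those of the fit for the classes by vehicle level, were added after seeing the data. Depth limits genes under 1 CPM in either or both lines, with median SEs of 0.64 to 0.82.

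Replicate numbers are shared by the groups, but same-numbered treated and vehicle libraries did not deviate together (correlations of -0.048 to 0.071 over 8 pairs). With the replicate block 3254 genes were called, 1731 higher and 1523 lower, and 3198 of them were among the 3728. Of the 8 treated libraries 2 correlated best with their own number.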
